A study of Arabidopsis thaliana with 4 samples.

Results

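In all, 4 pairs of neighbouring genes with lower transcript levels in floral buds of the Arabidopsis thaliana cdm1 mutant are described here. The 8 genes are AT1G15320 with AT1G15330 and AT1G54230 with AT1G54240 on chromosome 1, and AT2G27630 with AT2G27650 and AT2G33000 with AT2G33010 on chromosome 2. They were selected from 13286 loci with a probe set of 1 gene, chosen by their measured change in these same samples: both genes of each pair were seen lower in cdm1. The decreases are therefore given as values without a test. Each gene is read by 1 probe set, and all 8 probe sets were found. No sequences were compared, so whether a probe set also reads the transcript of its neighbour was not tested.

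The samples were unopened flower buds of Col-0 plants, 24 days after germination, with 2 biological replicates for cdm1 and 2 for wild type, each on 1 Affymetrix array. The labels give no allele for cdm1 and no treatment that tells the samples apart, although the growth protocol mentions moderate drought for some plants. CDM1 (CALLOSE DEFECTIVE MICROSPORE1) encodes a CCCH zinc finger protein needed for callose metabolism around male meiotic cells. CDM1 itself was not analysed here, so the mutated gene gives no check of the labels.

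Genes that sit next to each other can share regulatory DNA or can be copies of each other left by tandem duplication, and either can go with similar expression. The 8 genes fall into protein families with separate tasks. AT1G15330 encodes PV42a, a protein with CBS domains related to the gamma subunits of SnRK1, the plant energy-sensing kinase. AT1G54230 and AT1G54240 encode proteins of a winged-helix type, a fold of many DNA-binding proteins and of linker histones. AT2G27630 and AT2G27650 encode proteins related to ubiquitin carboxyl-terminal hydrolases, enzymes that remove ubiquitin from other proteins. AT2G33000 and AT2G33010 encode proteins with a ubiquitin-associated (UBA) domain, a small fold that binds ubiquitin. No role is given here for AT1G15320.

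All levels below are log2 expression values from RMA, a method that corrects background, aligns the arrays and summarises the probes of a probe set. A change is the cdm1 mean minus the wild type mean on that scale, with limma's moderated standard error (SE). The brightness of a probe set depends on its probes, so levels were not compared between genes, only changes. In whole buds, fewer cells of a type and less RNA per cell cannot be told apart.

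AT1G15320 read 6.93 and 6.76 on the wild type arrays and 4.98 and 5.15 on the cdm1 arrays. Its neighbour AT1G15330, the PV42a gene, read 7.18 and 6.71 in wild type and 5.36 and 5.51 in cdm1. Both genes were lower on each cdm1 array than on either wild type array, as were 23.6% of all probe sets. The change was -1.78 (SE 0.11), a 3.44-fold decrease as a ratio of RMA values, for AT1G15320. For AT1G15330 it was -1.51 (SE 0.17), a 2.85-fold decrease. The wild type replicates of AT1G15330 lay 0.47 apart, more than the replicates of 98.4% of all probe sets. Its lowest wild type value stood 1.20 above its highest cdm1 value, a gap from the comparison that chose the gene.

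Among the winged-helix genes, AT1G54230 read 7.54 and 7.13 in wild type and 5.96 and 5.92 in cdm1. AT1G54240 read 7.56 and 7.74 in wild type and 5.71 and 5.99 in cdm1. Again the genotypes did not overlap for either gene. The change was -1.40 (SE 0.15), or 2.63-fold lower, for AT1G54230. For AT1G54240 it was -1.80 (SE 0.13), or 3.49-fold lower. The replicates of these neighbours differed in opposite directions. Wild type replicate 1 was above replicate 2 by 0.41 for AT1G54230 and below it, at -0.18, for AT1G54240. The gap of AT1G54230 was wider than that of 97.1% of all probe sets.

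Of the hydrolase-related genes, AT2G27630 read 4.27 and 4.75 in wild type and 3.16 and 3.39 in cdm1. AT2G27650 read 5.28 and 5.41 in wild type and 4.13 and 4.32 in cdm1. Both were lower in both mutant samples, with a change of -1.24 (SE 0.18) for AT2G27630 and of -1.12 (SE 0.11) for AT2G27650. Wild type replicate 1 of AT2G27630 was below replicate 2, at -0.48, a wider gap than that of 98.6% of all probe sets. All 4 values of AT2G27630 and 3 of the 4 of AT2G27650 were under 5.32, the level below which the dimmest 33.3% of probe sets lie. No comparison with background signal was made, and no fold is given for this pair.

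For the UBA-domain pair, AT2G33000 read 7.32 and 7.48 in wild type and 5.59 and 5.83 in cdm1. AT2G33010 read 5.95 and 6.24 in wild type and 4.82 and 4.88 in cdm1. Neither gene overlapped between genotypes. The change was -1.69 (SE 0.12), or 3.23-fold lower, for AT2G33000 and -1.25 (SE 0.12), or 2.38-fold lower as a ratio of RMA values, for AT2G33010. The cdm1 values of AT2G33010 and of AT1G15320 were below the same limit of 5.32, and their wild type values were above it.

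**Figure D1:**
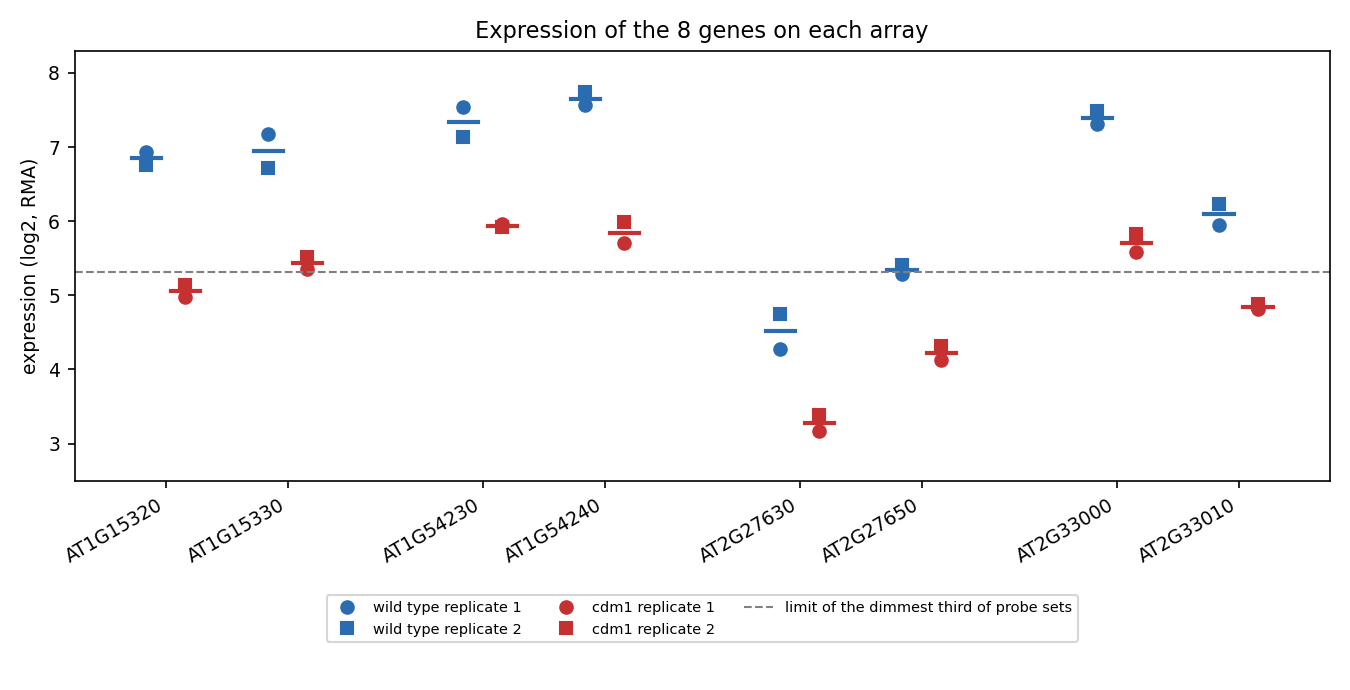
Expression (log2, RMA) of the 8 genes, drawn pair by pair, with 1 point per array and a bar at the mean of the 2 arrays of a genotype. For each gene both wild type points lie above both cdm1 points, as for 23.6% of all probe sets. The gaps lie between 0.88 (AT2G27630) and 1.62 (AT1G15320), and the dashed line marks 5.32.

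Over the 8 genes the changes ran from -1.80 to -1.12, with a median of -1.45, beside a median of 0.0036 over all 22746 probe sets. All 8 were called lower by limma (adjusted p under 0.05), without overlap between genotypes. These counts follow from how the genes were chosen, and nothing is read from them. The background was 0.73% of probe sets called lower and 23.6% with both wild type arrays above both cdm1 arrays. With either wild type array left out, 0 of the 8 were called by limma, and 0 probe sets in all (1619 and 2133 probe sets had an unadjusted p under 0.05 without replicate 1 and 2, in that order). Without cdm1 replicate 1, 7 were called, and AT2G27630 was not. Of all probe sets, 112 fell at least as far as AT2G27650 and 21 at least as far as AT1G54240.

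How closely the genes of a pair moved together was read from the difference between them on each array. For AT1G15320 minus AT1G15330 it was -0.25 and 0.051 in wild type and -0.37 on each cdm1 array. AT1G15320 thus changed by 0.27 more than its neighbour, with a replicate SD of the difference of 0.15, pooled over the genotypes. Dropping wild type replicate 1 made that difference in change -0.42, and dropping wild type replicate 2 made it -0.12. Both cdm1 values of AT1G15320 were under 5.32, where RMA compresses changes, and the effect of this on the difference was not tested.

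For AT1G54230 minus AT1G54240 the difference was -0.022 and -0.61 in wild type and 0.25 and -0.067 in cdm1. The genotypes overlapped, and the difference in change of 0.41 was close to the replicate SD of 0.33. It ranged from 0.11 without wild type replicate 2 to 0.70 without wild type replicate 1. For AT2G27630 minus AT2G27650 the values were -1.01 and -0.66 in wild type and -0.96 and -0.93 in cdm1. These also overlapped. The difference in change was -0.11 with a replicate SD of 0.18, and its sign turned, to 0.064, without wild type replicate 2. It was -0.29 without wild type replicate 1.

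For AT2G33000 minus AT2G33010 the difference was 1.36 and 1.24 in wild type and 0.77 and 0.95 in cdm1. AT2G33000 changed by 0.44 more than AT2G33010, with a replicate SD of 0.11 and no overlap between genotypes. Leaving out 1 array at a time gave values between -0.53 and -0.35. The cdm1 values of AT2G33010 lay under 5.32, where RMA compresses changes, and its part in this difference was not tested. None of these differences was tested, because both changes chose the genes.

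**Figure D2:**
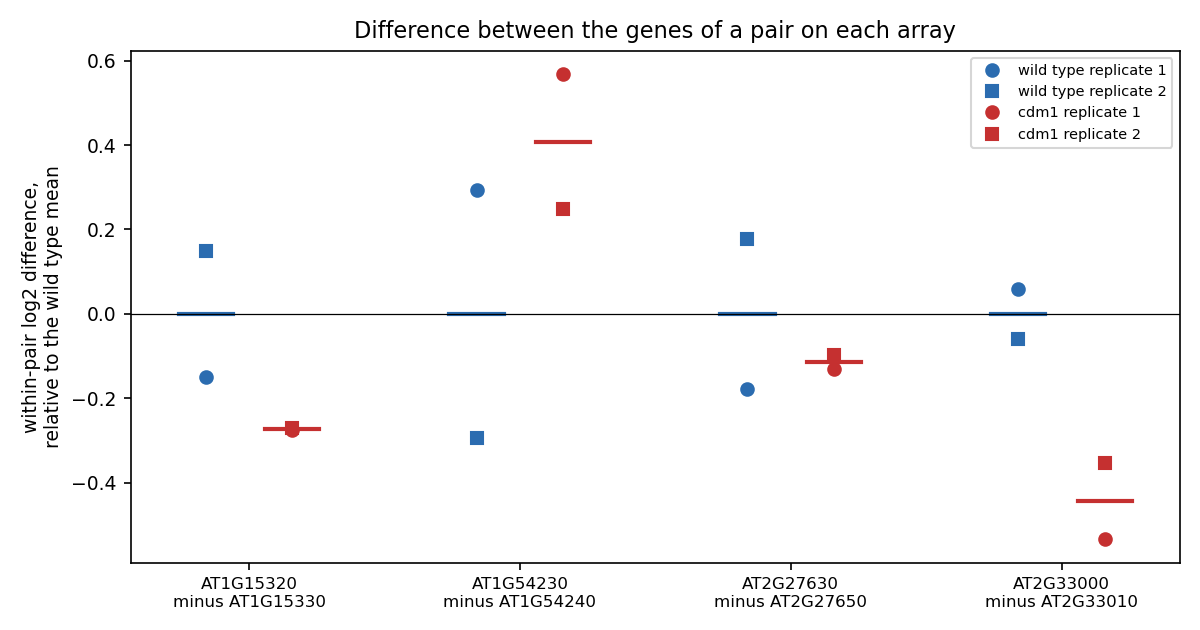
Difference between the first and the second gene of each pair on each array (log2), set relative to its wild type mean, with points for arrays and bars for genotype means. The cdm1 points leave the wild type range for the AT1G15320 and AT2G33000 pairs and lie inside or across it for the other pairs.

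The difference between replicates of 1 genotype was not used to choose the genes. In 6 of the 8 combinations of pair and genotype, the genes of a pair differed between replicates in the same direction. The exceptions were wild type and cdm1 for AT1G54230 with AT1G54240. Genes of different pairs shared the direction in 18 of 24 combinations in cdm1, beside 3 of 4 for genes of a pair, and in 10 of 24 in wild type, also beside 3 of 4. In cdm1, 7 of the 8 genes were lower in replicate 1 than in replicate 2, so the count there does not set the pairs apart. All genes share the same 2 arrays of a genotype, so the combinations are not independent. The wild type count rests on 4 pairs, and nothing is read from it either. In cdm1 these replicate differences were -0.16 for both AT1G15320 and AT1G15330, and -0.23 for AT2G27630 beside -0.19 for AT2G27650. They were -0.24 for AT2G33000 and -0.059 for AT2G33010. Over all probe sets the SD of this difference was 0.23 in cdm1 and 0.17 in wild type.

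Over the 4 arrays, the genes of a pair were not each other's closest match among the 8. Likeness was measured as the Euclidean distance between log2 profiles, each centred on its own mean. Within pairs the distance ran from 0.28 to 0.62, with a median of 0.41 over 4 pairs. Between genes of different pairs it ran from 0.11 to 0.72, with a median of 0.54 over 24 combinations. The closest match of every gene was a gene of another pair. AT1G54240 and AT2G33000 were the closest of all, at a distance of 0.11. Every gene had more candidates outside its pair than within it, so a closest match from another pair can arise by number alone. The distance also contains the difference in size of decrease, and the measured decrease chose the genes. Whether neighbours moved together can therefore not be decided from these distances, and nothing is read from them.

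The measured genes beside the pairs, which the rule does not name, had changes between -0.26 and 0.29. A lowered direct neighbour could have made a longer run rather than a pair. Small changes of the nearest genes may therefore follow in part from the selection. Up to 5 genes on either side were taken from RefSeq gene order, 40 in all, of which 19 had a probe set of 1 gene. None of the 19 passed limma's test over all probe sets, where 1.33% of all probe sets passed. With ordinary linear-model p-values 0 passed too, in a fit that called 1 probe set in all. At an unadjusted p of 0.05, 1 of 19 passed, beside 15.3% of all probe sets. The median of their changes was 0.074, and 11 were above 0 and 8 below. Their SEs were 0.089 to 0.18. The table lists no gene between the members of any pair.

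Close to the AT1G15320 pair, the nearest measured gene on the lower-numbered side was AT1G15300, a pseudogene with the symbol CYTOSLEEPER, at -0.21 (SE 0.089, limma adjusted p = 0.34). On the other side it was AT1G15350, at -0.26 (SE 0.10, limma adjusted p = 0.326), the gene with the unadjusted p under 0.05. The genes directly beside this pair were not analysed here. Next to AT1G54230, the gene AT1G54220 was at 0.22 (SE 0.092, limma adjusted p = 0.343), of opposite sign to the changes of the pair. On the far side of AT1G54240, AT1G54260 was at -0.050 (SE 0.099). Its mean level was 7.55 ± 0.041 for wild type and 7.50 ± 0.10 for cdm1 (SD, n = 2 arrays each).

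Both genes directly beside the hydrolase-related pair were measured. AT2G27610 was at -0.057 (SE 0.11) and AT2G27660 at -0.031 (SE 0.097), with limma adjusted p-values of 0.872 and 0.927. Beside AT2G33000, the endoglucanase family gene GH9B8 (AT2G32990) was at 0.29 (SE 0.18, limma adjusted p = 0.504). It read 7.23 ± 0.089 in wild type and 7.51 ± 0.37 in cdm1 (SD, n = 2 arrays each). No gene on the far side of AT2G33010 was measured within this range, so the edge there is not known.

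**Figure D3:**
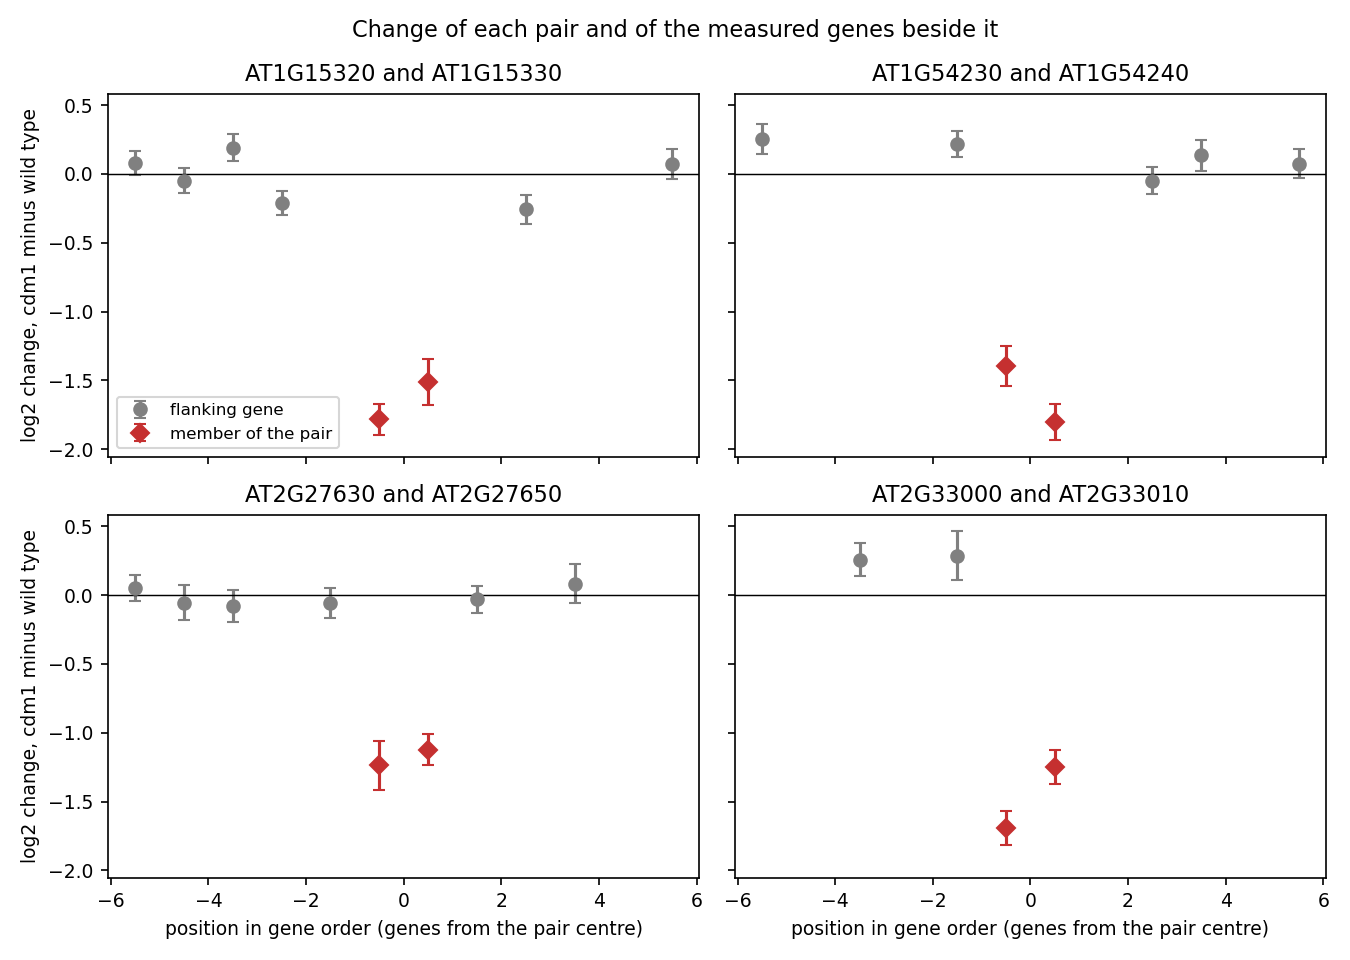
Change (log2, cdm1 minus wild type) with its SE for each pair and for the measured genes among the 5 on either side, by position in gene order, with gaps for genes not analysed here. The members lie at -1.12 or below, and the 19 flanking genes lie between -0.26 and 0.29.

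Across the genome, 5196 pairs of directly adjacent genes had a probe set of 1 gene each. In 8 of them (0.154%) both genes were called lower, in 1 both were called higher, and in 1 the calls were opposite. The 4 pairs described here are among the 8. Of the others, AT2G29770 with AT2G29780 (-2.36 and -1.53) and AT2G29820 with AT2G29830 (-1.70 and -2.33) lie in a cluster of kelch-repeat F-box genes. The remaining ones were AT5G60080 with AT5G60090 (-1.35 and -0.93) and AT3G61800 with AT3G61810 (-0.64 and -0.67).

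In 88 of the 5196 pairs, 1 of the genes was called lower and the other was not. Of 117 loci called lower, 78 had a measured adjacent gene, and for 16 of these that neighbour was called lower too (20.5%), 8 of the 16 being the genes described here. Over all 13286 loci, 0.881% were called lower. The share of 20.5% counts every adjacent pair, chosen here or not. It is a description, from the same contrast that chose the 8 genes. The other 8 were found among 70 loci and include the kelch-repeat F-box genes named above, which lie in a single cluster. At a distance of 2 genes, 2 of 5027 pairs had both genes called lower. Both lie in that same cluster: AT2G29780 with AT2G29800, and AT2G29800 with AT2G29820. Just outside the call, AT4G39780 with AT4G39790 were both lower, at -0.90 and -0.44, but neither was called. AT1G74870 was called at -1.84 while its neighbour AT1G74860 stood at -0.49 without a call. The hydrolase-related pair, at -1.24 and -1.12, was the member pair nearest to the threshold.

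As a description, the changes of adjacent genes correlated at r = 0.075 over the 5196 pairs and at 0.052 without the 4 pairs. For genes 2 to 5 steps apart r lay between 0.0070 and 0.024. The genes share the same 4 arrays, and all these values are low. The changes of adjacent genes had the same sign in 51.3% of pairs.

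**Figure D4:**
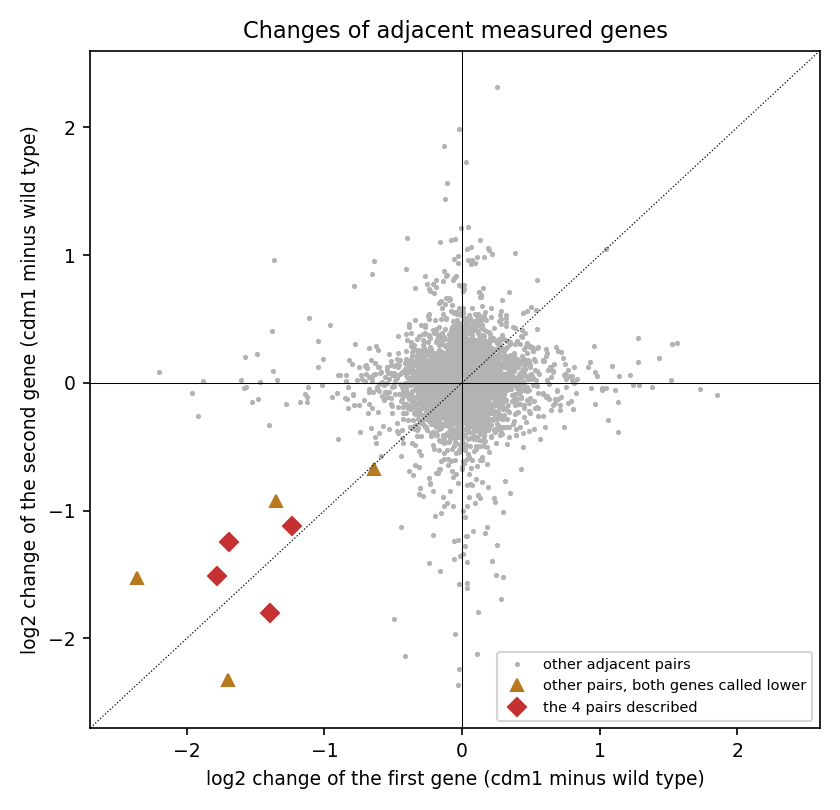
Changes (log2, cdm1 minus wild type) of the first and second gene of 5196 adjacent gene pairs, with diamonds for the 4 pairs described, triangles for the other 4 pairs with both genes called lower, and grey points for the rest. Most pairs with 1 strongly lowered gene lie along an axis, with the neighbour near 0.

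Genes listed as relatives of the members by family or complex name gave no call. No sequence match to the members was run, so their closest relatives may lie outside these lists. Lists of the SnRK1 complex, of linker histone-type genes, of ubiquitin-specific proteases and of UBA-domain shuttle proteins held 53 genes, of which 19 were measured. Limma called 0 of the 19, beside 1.33% of all probe sets, and their median change was -0.031. At an unadjusted p of 0.05, 3 of 19 passed, beside 15.3% of all probe sets. The ordinary linear-model fit, with 1 call in all, called 0. None of the 8 listed UBA-domain shuttle genes was measured.

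Of the SnRK1 list, 3 of 9 genes were measured and none passed. The 3 did not include PV42b, KING1 or SNF4, so the gamma-type genes related to PV42a were not covered. The beta subunit gene AKINBETA1 had the smallest p, at -1.14 (SE 0.32, limma adjusted p = 0.181), and it was called once cdm1 replicate 2 was left out, at -1.65 (limma adjusted p = 0.0053). Of the linker histone-type list, 4 of 9 were measured and none passed, with AT2G30620, a linker histone H1 gene, at -0.24 (SE 0.090, limma adjusted p = 0.298). Of the ubiquitin-specific proteases, 12 of 27 were measured, with changes from -0.58 to 0.16. UBP18 had the smallest p of these, at -0.58 (SE 0.096, limma adjusted p = 0.0585). It read 7.75 in wild type and 7.18 in cdm1 on average.

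Each pair had close matches elsewhere in the genome. For AT1G15320 and AT1G15330 the 3 most similar profiles over the 4 arrays were AT5G15480, AT2G29780 and AT2G29820, at distances of 0.12 to 0.14 from the mean of the pair. For AT1G54230 and AT1G54240 they were AT4G03170, AT3G21000 and AT1G15850 (0.066 to 0.16). For the hydrolase-related pair they were AT2G32310, AT1G14680 and the histone deacetylase gene HDA7 (0.15 to 0.19). For the UBA-domain pair they were AT3G58280, AT3G12850 and AT5G11080 (0.13 to 0.15). All 12 were themselves called lower. With 4 arrays in 2 genotypes, such a match says little more than a decrease of the same size.

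The labelled tissue was checked with markers of its cell types. AMS, a transcription factor of the tapetum, which feeds developing pollen, averaged 11.1 in wild type and 11.3 in cdm1. Of 5 tapetum markers, limma called SHT higher and 0 lower (3 at an unadjusted p of 0.05, beside 15.3% of all probe sets). Their changes ran from 0.12 to 1.73, and their summed log2 level was 51.5 to 52.8 in wild type and 55.1 to 56.2 in cdm1. Of 8 meiosis markers, 4 were measured and limma called 0 (3 at an unadjusted p of 0.05). Their summed level was 22.9 to 24.0 in wild type and lower, 22.1 on both arrays, in cdm1, with a median change of -0.38. Their part in the decreases of the 8 genes was not tested. The 3 measured late pollen markers summed to 11.3 to 12.04 in wild type and to 11.3 to 11.4 in cdm1. The 4 floral organ markers summed to 23.0 to 23.5 in wild type and 23.2 to 23.8 in cdm1. LHCB4.2, the measured leaf photosynthesis marker, averaged 12.6 in wild type and 12.7 in cdm1, a change of 0.085. At this level it does not show an absence of green tissue. Replicates correlated at 0.998 in wild type and 0.996 in cdm1 across probe sets, and arrays of different genotypes at 0.990 to 0.994.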

How the data were processed

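The authors deposited 1 log2 expression value for each probe set on each array. Per the submitters' processing notes, RMA and affy (an R package) were used, with versions and genome build not given in the sources used here. Scanner files were not used here. That the scale is log2 follows from the range of the values, which run from 2.64 to 14.0 with array medians between 7.21 and 7.24. RMA compresses the changes of dim probe sets, and precision is limited by the number of arrays.

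Of 22746 probe sets, GEO's platform annotation gave 1 symbol for 13513 and several for 503, and did not list 8730. Of these, 13436 were matched by gene ID to 13286 loci of RefSeq's TAIR10.1 table, used for symbols and gene order (all gene types) only. A locus with several probe sets was read by its brightest.

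The genotype difference was fitted with limma 3.58.1, run in R 4.3.3 (lmFit and eBayes, two-sided, Benjamini-Hochberg over all probe sets, threshold 0.05). The step was tested on simulated data. The members and lists were chosen with earlier results of these data known. Named were all members, called or nearest flanking genes, the listed relative with the smallest p where none was called, the 3 most similar profiles per pair, and adjacent pairs called lower. Protein matches and promoter motifs were planned and not run, since no sequence was used here. The alternatives tried were median centring, a second quantile normalisation, the dimmest 33.3% left out, variance trends, 1 probe set per locus, a replicate block, each array left out and ordinary p-values.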

Additional observations from a re-analysis of the deposited data

How the results depend on the processing

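Limma called 0 flanking genes in each of the 8 alternatives that called over 1 probe set in all, where their lowest adjusted p was 0.0629, without cdm1 replicate 2. The other 4 (the replicate block, ordinary p-values and either wild type array left out) called at most 1 probe set, so a 0 there says nothing of the flanking genes. The members' groups do not overlap, so leaving out an array cannot turn their direction, and nothing is read from it. Ordinary linear-model p-values gave 0 called members, 0 adjacent pairs and 1 probe set called lower. With a replicate block in the fit, limma called 0 members, 0 adjacent pairs and 0 probe sets (3110 at an unadjusted p of 0.05). The numbers are not shown to pair the arrays: replicate differences of the genotypes correlated at -0.066 across probe sets. Both fits have fewer degrees of freedom behind each variance. Leaving out 1 array gave 0 to 8 called members, 0 to 11 adjacent pairs, 0 to 528 probe sets called lower and 0 to 2 called relatives. The lone array left in a genotype then takes its spread from the other genotype. The relatives were AKINBETA1 and HIS1-3 (at -1.16, named after its value was seen), both without cdm1 replicate 2. A second quantile normalisation and the robust variance trend each called 1 relative, UBP18 (limma adjusted p = 0.0473 and 0.0453). The robust trend called 245 probe sets lower and 1 probe set per locus 120, beside 166, and 8 adjacent pairs each time. With the dimmest 33.3% left out, AT2G27630 and AT2G27650 were not fitted, and the other 6 members were called. The count of 6 same-signed replicate differences was 6 after both normalisations. Signal over background was not tested.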
